A study of Saccharomyces cerevisiae with 12 samples.

Results

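The arrays examined here followed the budding yeast Saccharomyces cerevisiae late in a course of methyl methanesulfonate (MMS). They are the 3 arrays taken 100, 140 and 180 min after MMS was added at 0.1%, and they were set against the 2 arrays at time 0, 1 from the MMS course and 1 from a parallel course with 0.3 mM hydrogen peroxide (H2O2). These 5 arrays were chosen by their titles from the 12 arrays of the study, and every probe set other than the array's controls was tested, 5716 in all. All cultures had grown in YPD, a rich glucose medium, to mid-log phase at 25 degrees, and time 0 is the moment at which the agents were added. The labels name no strain or genotype, and each time point is 1 array. The early MMS arrays at 30 and 60 min and the late H2O2 arrays at 100, 140 and 180 min served as further comparisons.

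MMS methylates the bases of DNA. Methylated bases are removed by base excision repair, which in yeast starts with the glycosylase Mag1, and lesions that stall replication forks activate the checkpoint kinases Mec1, Rad53 and Dun1, which relieve repression of the ribonucleotide reductase genes. Alkylated and misfolded proteins are degraded by the proteasome, whose genes are transcribed through the factor Rpn4. Stressed yeast also activate the general stress factors Msn2 and Msn4 and lower the transcription of ribosome genes.

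The values are log2 probe set signals, so a difference of 1 is a 2-fold change, and a level can be compared between arrays but not between genes. Probe sets with a Benjamini-Hochberg adjusted p below 0.05 count as called in limma, a linear model with a moderated spread fitted to all 12 arrays in 5 groups. Against time 0, 2317 probe sets were higher in late MMS cells (40.5%) and 1965 were lower (34.4%), so that 74.9% of the probe sets were called. Of these, 1082 were 2-fold or more higher (18.9%) and 928 were 2-fold or more lower (16.2%). The median change over all probe sets was 0.09. Because so many probe sets were called, counts of called members are read below against these shares, and counts past 2-fold are given beside them for many of the lists. Within the window the arrays were close to each other, with correlations over probe sets of 0.983 to 0.994 and 16 to 111 probe sets 2-fold apart, and between 1839 and 2195 probe sets were 2-fold apart between a late MMS array and a time 0 array. The time 0 arrays differed 2-fold from each other at 7 probe sets. The actin gene ACT1 was not called, at 0.13 ± 0.08 (log2 change, SE). Nothing in the labels says that the time points are separate cultures, so p-values measure the spread among the time points of a window. On the array's control genes, the 3′ probe sets exceeded the 5′ ones by more in late MMS than at time 0 for 5 of 6 genes. For ACT1, actin, this log2 difference was 0.57, 0.54 and 0.66 in the late MMS arrays, against 0.25 and 0.27 at time 0, and for WBP1 it was 1.44, 1.45 and 1.26 against 0.78 and 0.73. The part of this RNA quality measure in the results below was not tested.

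The 12 largest rises lay between 5.69 and 7.61 on the log2 scale. DDI3, a cyanamide hydratase gene known for its induction by alkylating agents, stood at 13.16, 13.06 and 13.18 in the arrays at 100, 140 and 180 min of MMS, against 5.54 and 5.50 at time 0 (H2O2 course, then MMS course, as throughout). Its change of 7.61 ± 0.32 (log2, SE of the model) corresponded to 196-fold (adjusted p = 1.54e-06), and its probe set is shared with the near-identical DDI2. The epoxide hydrolase gene YNR064C read 10.40, 10.43 and 10.36 in late MMS cells and 3.54 and 3.59 at time 0, a change of 6.83 ± 0.47. In both genes the late values lay within a narrow band far above time 0. The highest value on the arrays was 13.70, and whether the DDI3 probe set was saturated was not tested. TSA2, a thioredoxin peroxidase, read 12.53, 12.46 and 12.36 against 5.33 and 5.96, a change of 6.81 ± 0.52. SRX1, the sulfiredoxin that repairs over-oxidised peroxiredoxins, read 12.28, 11.68 and 11.80 against 5.63 and 6.26, a change of 5.97 ± 0.66. OYE3, an NADPH oxidoreductase of the Old Yellow Enzyme family, changed by 6.02 ± 0.92, and AAD4, a putative aryl-alcohol dehydrogenase, by 6.11 ± 0.45. GPH1, glycogen phosphorylase, read 11.02, 11.35 and 11.07 in late MMS cells and 5.34 and 5.56 at time 0. SOL4, a 6-phosphogluconolactonase of the pentose phosphate pathway, read 11.13, 11.60 and 11.24 against 5.02 and 5.46. YNL194C, of the Sur7 family of membrane proteins, rose by 6.82 ± 0.72, RTC3 by 6.35 ± 0.58, LSO1 by 6.07 ± 0.75 and FMP16, which encodes a mitochondrial protein, by 5.70 ± 0.59. Every one of these 12 genes had all 3 late MMS arrays above both time 0 arrays, which was a condition of the choice.

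**Figure D1:**
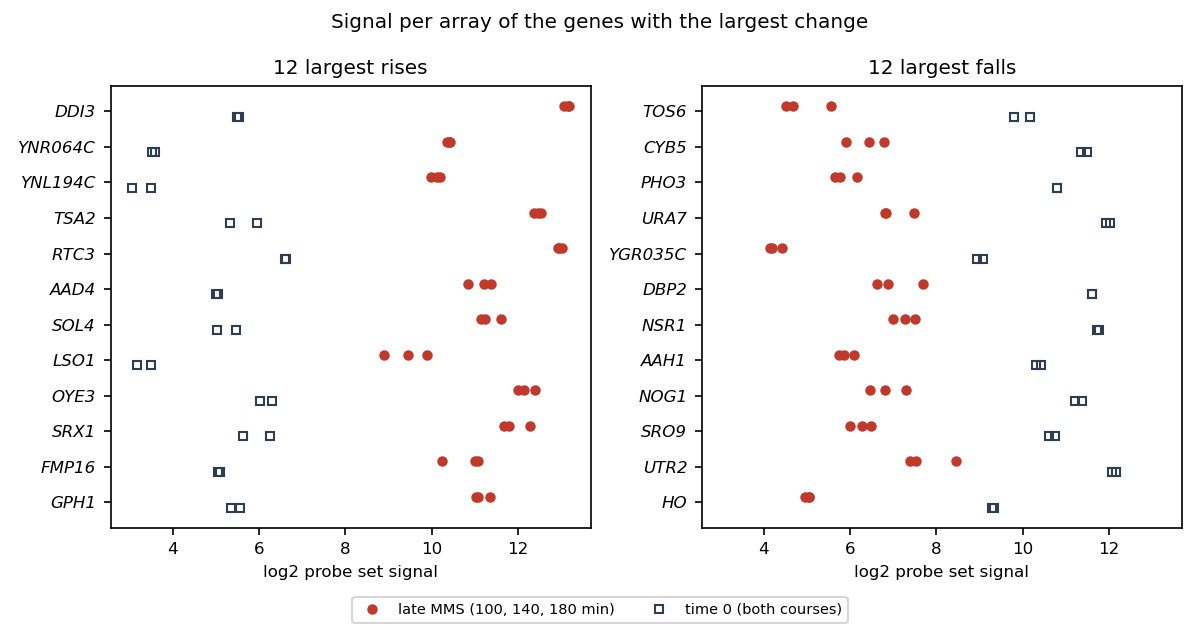
Log2 probe set signal on each array for the 12 largest rises and the 12 largest falls of late MMS against time 0. Filled points are the 3 late MMS arrays and open squares the 2 time 0 arrays. DDI3 lies above 13 on all 3 late MMS arrays and below 6 at time 0, and no gene's late MMS arrays overlap its time 0 arrays.

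The 12 largest falls lay between -4.29 and -5.06 on the log2 scale. TOS6, which encodes a cell wall protein anchored by glycosylphosphatidylinositol, read 5.56, 4.53 and 4.68 in late MMS cells and 9.79 and 10.17 at time 0, a change of -5.06 ± 0.50 (adjusted p = 4.41e-05). CYB5, cytochrome b5, an electron donor in sterol and lipid synthesis, read 6.78, 6.44 and 5.91 against 11.49 and 11.36, a change of -5.05 ± 0.50. PHO3, an acid phosphatase, read 6.16, 5.78 and 5.64 against 10.79 and 10.80. For these 3 genes the lowest time 0 value was several log2 units above the highest late MMS value. URA7, the major CTP synthase, changed by -4.93 ± 0.71, and AAH1, adenine deaminase, by -4.46 ± 0.87. The ribosome assembly genes DBP2, NSR1 and NOG1, an RNA helicase, a nucleolin-like protein and a GTPase, changed by -4.54 ± 0.62, -4.48 ± 0.70 and -4.44 ± 0.60. SRO9, an RNA-binding protein gene, changed by -4.43 ± 0.57, UTR2, a cell wall transglycosylase gene, by -4.33 ± 0.38, and YGR035C by -4.76 ± 0.65. HO, the endonuclease of mating-type switching, read 5.04, 4.96 and 5.05 in late MMS cells and 9.28 and 9.34 at time 0.

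Genes were also read in 43 lists, with 1 probe set per gene. The plot of changes by list shows how far they spread around the median of all probe sets. The general stress list lay farthest up and ribosome assembly farthest down.

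**Figure D2:**
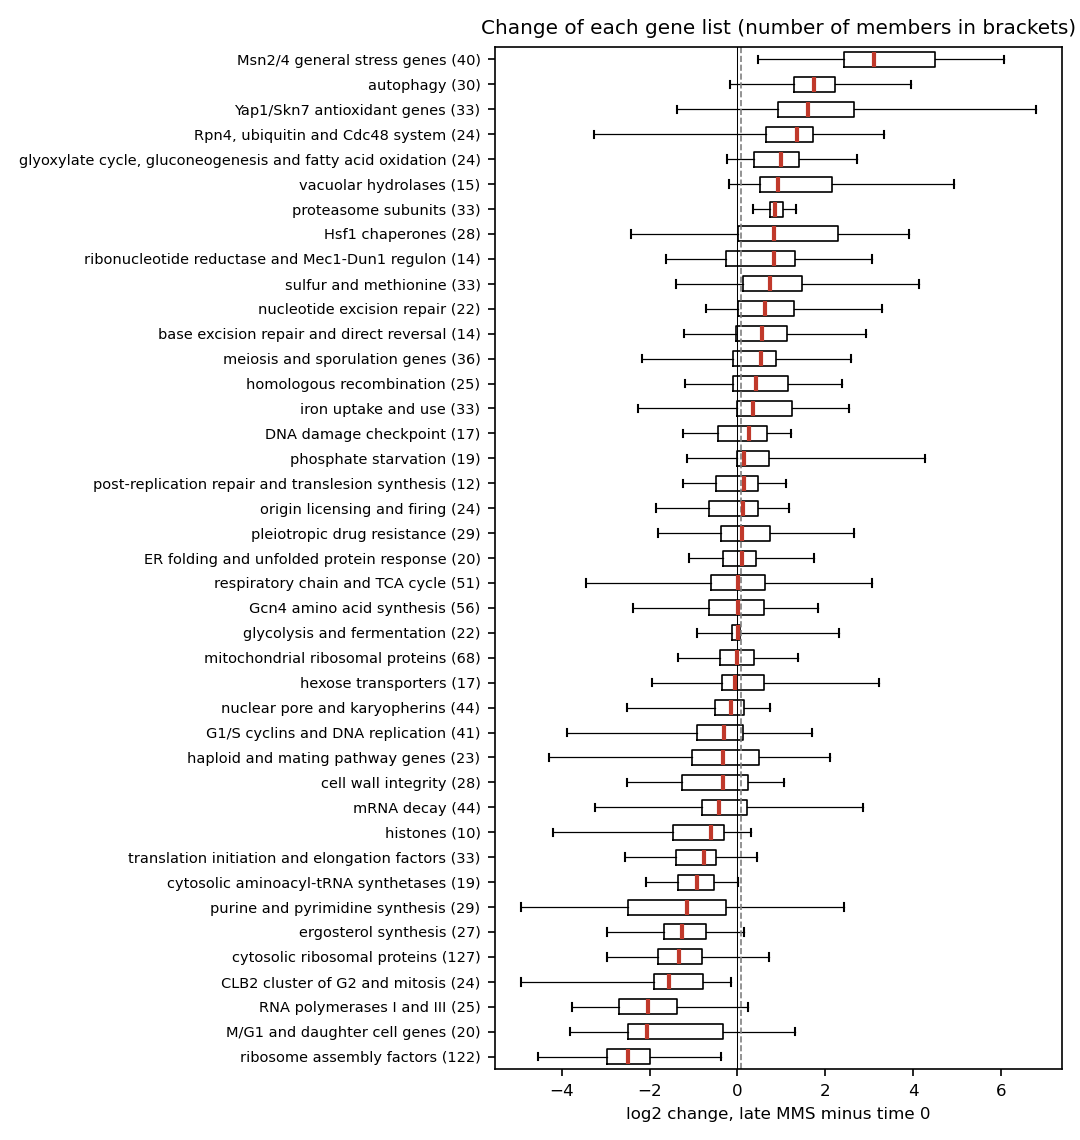
Log2 change of late MMS minus time 0 for the members of each list, with the a-cell and alpha-cell lists left out. Boxes span the quartiles, the red bar is the median, whiskers reach the lowest and highest member, and the dashed line is the median of all probe sets (0.09); list medians run from -2.49 for ribosome assembly factors to 3.12 for general stress genes.

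Among nucleotide supply and DNA repair genes, RNR3, HUG1, MAG1 and RAD54 rose, and RNR1, TOS4, OGG1 and RAD6 fell. In the ribonucleotide reductase and Mec1-Dun1 list, 9 of 14 members were called higher and 4 lower, with 6 and 3 past 2-fold and a median change of 0.83. RNR3, the damage-inducible large subunit, read 9.47, 9.28 and 9.15 in late MMS cells and 6.19 and 6.30 at time 0. HUG1, an inhibitor of the reductase that is itself a checkpoint target, read 9.09, 9.58 and 10.03 against 6.70 and 6.62. PLM2, a forkhead-associated transcription factor gene, rose by 2.24 ± 0.23. The small subunits RNR2 and RNR4 rose by 0.84 ± 0.11 and 0.68 ± 0.12. RNR1, the large subunit of the unstressed cell cycle, went the other way and read 9.23, 8.65 and 8.52 in late MMS cells against 10.39 and 10.47 at time 0. RNR1 and RNR3 thus changed by -1.63 ± 0.33 and 3.06 ± 0.39. The other lower members were TOS4, DIF1 and SML1, at -1.58 ± 0.22, -1.58 ± 0.16 and -0.39 ± 0.12, and the proteins of DIF1 and SML1 restrain the reductase.

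Direct reversal and base excision repair had 8 of 14 members higher and 2 lower, with 4 and 1 past 2-fold and a median change of 0.56. Fewer members were tested with the dimmest 25% of probe sets left out, and 4 were then called higher, 2 of them past 2-fold. MAG1, the 3-methyladenine glycosylase, read 10.87, 11.11 and 11.42 in late MMS cells and 8.20 and 8.19 at time 0, a change of 2.94 ± 0.38 (adjusted p = 1.10e-04). PHR1, the photolyase, rose by 1.74 ± 0.24, NTG1, a glycosylase that also cuts abasic sites, by 1.44 ± 0.20 and the abasic endonuclease gene APN2 by 1.24 ± 0.17. The 2 members that fell were OGG1, the 8-oxoguanine glycosylase, and UNG1, uracil glycosylase, at -1.22 ± 0.23 and -0.56 ± 0.11. Both were named after their values were seen.

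Nucleotide excision repair had 15 of 22 members higher and 3 lower, a median change of 0.63, and 7 members past 2-fold upward with 0 past 2-fold downward. RAD16, which acts in repair of untranscribed DNA, read 9.90, 10.11 and 10.35 in late MMS cells and 6.74 and 6.94 at time 0, a change of 3.28 ± 0.36. The damage recognition gene RAD4 rose by 2.36 ± 0.23, the nuclease gene RAD2 by 2.25 ± 0.25 and RAD28 by 1.67 ± 0.26. The 3 lower members, TFB5, TFB4 and RAD33, lay between -0.71 and -0.20 and were named after their values were seen. With the arrays centred on their medians or quantile normalized, 5 members were called lower.

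Homologous recombination had 14 of 25 members higher and 6 lower, with 9 and 2 past 2-fold and a median change of 0.43. RAD54, the translocase that assists strand invasion, read 9.87, 10.02 and 10.23 in late MMS cells and 7.62 and 7.71 at time 0, a change of 2.37 ± 0.28. XRS2, of the complex that binds double-strand ends, rose by 1.45 ± 0.20, and the nuclease genes DNA2 and MUS81 by 1.30 ± 0.19 and 1.20 ± 0.17. Post-replication repair was mixed, with 4 of 12 higher and 5 lower, and 3 lower without either time 0 array. In that list 1 member was past 2-fold upward and 1 downward. There RAD18, the ubiquitin ligase that marks the sliding clamp, rose by 1.12 ± 0.14, and its partner RAD6 fell, at -0.93 ± 0.12. ELG1, which unloads the clamp, changed by -1.23 ± 0.22 and the translesion polymerase gene REV1 by -0.84 ± 0.18. The checkpoint list had 9 of 17 members higher and 5 lower, at a median of 0.27. Of the 17, 2 were past 2-fold upward and 1 downward, against 18.9% and 16.2% of all probe sets. The clamp subunit genes RAD17 and DDC1 rose by 1.23 ± 0.16 and 1.12 ± 0.24. The lower members beside PTC2 were DPB11, CSM3, RAD9 and TEL1, at -0.73, -0.71, -0.70 and -0.45. The phosphatase genes PTC2 and PTC3, which act on Rad53, changed by -1.23 ± 0.21 and 0.75 ± 0.13, in opposite directions.

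Proteasome genes rose as an almost uniform block. Of 33 subunits, 32 were called higher and 0 lower, and all 33 had every late MMS array above both time 0 arrays, as 46.2% of all probe sets did. The exception to the calls was SEM1, at 0.36 ± 0.15 (adjusted p = 0.0539), named after its value was seen. Their changes ran from 0.36 to 1.34 around a median of 0.86, and 10 passed 2-fold. The list's mean signal was 12.42, 12.45 and 12.50 in the late MMS arrays, against 11.60 and 11.58 at time 0. The ATPase subunit RPT3 read 12.51, 12.53 and 12.55 in late MMS cells and 11.15 and 11.23 at time 0. The core subunit PRE3 rose by 1.19 ± 0.20, PRE8 by 1.24 ± 0.19 and the base subunit RPN2 by 1.15 ± 0.15. RPN4, the factor that drives these genes, read 11.76, 12.03 and 12.05 against 10.69 and 10.69, a change of 1.25 ± 0.16.

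Around the proteasome, 21 of 24 members of the ubiquitin and Cdc48 list rose and 1 fell, with a median of 1.36 and 16 past 2-fold upward. DDI1, a ubiquitin-dependent protease gene that shares its upstream region with MAG1, read 11.44, 11.84 and 11.997 in late MMS cells and 8.47 and 8.39 at time 0. The Cdc48 cofactor genes NPL4 and DOA1 rose by 2.33 ± 0.28 and 2.27 ± 0.26, and the polyubiquitin gene UBI4 by 1.72 ± 0.25. RFU1, an inhibitor of the deubiquitinase Doa4, was the list's single fall and read 5.96, 5.89 and 6.01 in late MMS cells against 9.30 and 9.13 at time 0.

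The general stress genes of Msn2 and Msn4 were the most strongly raised list. Of 40 members, 39 were called higher and every one of those passed 2-fold, around a median change of 3.12. The member that was not called was GAC1, at 0.48 ± 0.35 (adjusted p = 0.23), named after its value was seen. DDR2, a small stress protein gene, read 12.08, 12.06 and 12.05 in late MMS cells and 6.33 and 6.43 at time 0, and TFS1, an inhibitor of carboxypeptidase Y, read 12.81, 13.12 and 13.06 against 7.80 and 7.72. HSP12, a membrane-protecting protein, read 13.16, 13.31 and 13.43 against 8.74 and 8.86. These 3 genes stayed within a narrow range from 100 to 180 min. The highest value on the arrays was 13.70, and saturation of these probe sets was not tested. TSL1, a subunit of trehalose synthase, rose by 4.61 ± 0.39, and CTT1, the cytosolic catalase, by 2.78 ± 0.59.

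The antioxidant list of Yap1 and Skn7 had 31 of 33 members higher and 1 lower, with a median of 1.61 and 22 past 2-fold upward. Beside TSA2, OYE3 and SRX1, the glutathione transferase GTT2 rose by 4.79 ± 0.48. TSA1, the housekeeping thioredoxin peroxidase, rose by 0.40 ± 0.13 and the thioredoxin gene TRX2 by 0.69 ± 0.14, both chosen after their values were seen. SKN7 itself was the member that fell, at -1.37 ± 0.17, and YAP1 rose by 1.73 ± 0.20, also named after their values were seen.

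Many genes of the heat shock protein and chaperone list rose, and the ribosome-bound Hsp70 genes fell. The list was drawn up around the heat shock factor Hsf1, and whether Hsf1 drives each member was not tested. Of 28 members, 18 rose and 3 fell, with 12 past 2-fold upward and a median of 0.83. HSP30, a plasma membrane protein, read 11.12, 12.34 and 12.37 in late MMS cells and 7.97 and 8.11 at time 0. HSP31, a glyoxalase of the DJ-1 family, rose by 3.14 ± 0.33, the Hsp110 gene SSE2 by 2.80 ± 0.31 and the inducible Hsp90 gene HSP82 by 2.60 ± 0.29. The inducible Hsp70 gene SSA4 read 9.53, 10.77 and 11.13 against 7.97 and 8.04, a change of 2.47 ± 0.44. The 3 members that fell, SSB2, SSB1 and HSP10, changed by -2.42 ± 0.20, -1.39 ± 0.13 and -0.31 ± 0.10 and were named after their values were seen. The ribosome-bound proteins are those of SSB1 and SSB2. Folding genes of the endoplasmic reticulum were mixed, with 6 of 20 higher and 6 lower. ERO1, the oxidase that drives disulfide formation, rose by 1.74 ± 0.17, MPD2 and HRD1 rose by 1.002 ± 0.17 and 0.75 ± 0.13, and the stress sensor gene IRE1 changed by -1.09 ± 0.14. No direction is given for that list, since its median crossed 0 under quantile normalization.

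Autophagy genes rose broadly. Of 30 members, 27 were higher and 0 lower, with 23 past 2-fold and a median of 1.76, and the list's mean signal was 8.80, 8.997 and 9.01 in late MMS arrays, against 7.21 and 7.29 at time 0. ATG39, a receptor for autophagy of the nucleus, read 8.26, 8.86 and 9.005 in late MMS cells and 4.58 and 4.90 at time 0. ATG14, of the lipid kinase complex, rose by 3.23 ± 0.26, ATG1, the initiating kinase, by 2.93 ± 0.32 and the receptor gene ATG34 by 2.89 ± 0.35. Vacuolar hydrolases had 11 of 15 members higher and 0 lower, at a median of 0.92. APE1, an aminopeptidase delivered to the vacuole by selective autophagy, read 12.87, 12.81 and 12.77 against 8.04 and 7.74, a change of 4.93 ± 0.40. The protease gene PRB1 rose by 2.21 ± 0.32. The trehalase genes ATH1 and NTH2, which the list held beside the proteases, rose by 2.80 ± 0.31 and 2.73 ± 0.26. NTH2 is counted there although it is a neutral trehalase gene of the cytosolic type.

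Genes of fat oxidation and the glyoxylate cycle, normally low in glucose, had 17 of 24 members higher and 12 past 2-fold, with a median of 0.99. Many are dim, with a list mean of 6.11 and 6.18 at time 0. With the dimmest 25% of probe sets left out, 4 members were called higher and 2 passed 2-fold. POT1, the thiolase of peroxisomal beta-oxidation, read 6.36, 6.54 and 6.48 in late MMS cells and 3.67 and 3.82 at time 0. CRC1 and CAT2, which move acyl groups as carnitine esters, rose by 2.19 ± 0.39 and 1.70 ± 0.23, and IDP2, the cytosolic isocitrate dehydrogenase, by 1.60 ± 0.17. The respiratory list had 21 of 51 members higher and 18 lower and a median of 0.01, so that no direction is given for it. CYC1, the major cytochrome c, read 8.55, 7.61 and 7.18 in late MMS cells and 11.26 and 11.22 at time 0, a change of -3.46 ± 0.41. CYC7, the minor isoform, rose by 2.81 ± 0.39, COX5B, the minor form of a cytochrome oxidase subunit, by 3.06 ± 0.32 and the external NADH dehydrogenase NDE2 by 2.34 ± 0.38.

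Most glycolysis genes were not called, with 4 of 22 members higher and 5 lower. Of the 13 members that were not called, 10 had a mean of 12 or more at time 0, where the highest value on the arrays was 13.70. TDH1, the stress isoform of glyceraldehyde-3-phosphate dehydrogenase, rose by 2.31 ± 0.17 and the minor pyruvate kinase PYK2 by 1.39 ± 0.28, and PFK1, of phosphofructokinase, and ADH4 changed by -0.82 ± 0.16 and -0.92 ± 0.12. Among hexose transporters, HXT5, used in slow growth, read 6.99, 7.53 and 7.52 in late MMS cells and 4.02 and 4.203 at time 0. HXT7 rose by 2.67 ± 0.58 on a probe set shared with a near-identical gene, and HXT9 by 1.71 ± 0.32. HXT2 went down, at -1.95 ± 0.31. The list had 4 of 17 members higher and 5 lower, 4 and 2 of them past 2-fold. The count of lower members was 2 without the 140 min or the 180 min MMS array and 3 without either time 0 array.

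Genes of ribosome production fell together. Of 122 ribosome assembly factors, 121 were called lower and 0 higher, 118 were 2-fold or more lower, and all 122 had every late MMS array below both time 0 arrays, as 38.8% of all probe sets did. Their median change was -2.49, with a mean signal of 8.07, 8.16 and 8.46 in late MMS arrays, against 10.73 and 10.72 at time 0. NSR1 read 6.99, 7.28 and 7.51 in late MMS cells and 11.77 and 11.71 at time 0, and DBP3, an RNA helicase of large subunit assembly, read 6.95, 7.08 and 7.48 against 11.32 and 11.38. The exception to the calls was RRP4, an exosome subunit, at -0.38 ± 0.18 (adjusted p = 0.0783), named after its value was seen. RNA polymerases I and III had 24 of 25 members lower, all of them past 2-fold, at a median of -2.04. The polymerase I subunits RPA49, RPA135 and RPA190 changed by -3.77 ± 0.52, -3.32 ± 0.44 and -2.77 ± 0.40, RPA12 by -2.87 ± 0.38 and RPB5, shared by all 3 polymerases, by -2.97 ± 0.37. RRN3, the initiation factor of polymerase I, was not called, at 0.24 ± 0.20 (adjusted p = 0.294), and was named after its value was seen.

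Cytosolic ribosomal protein genes were lower for 125 of 127 members and higher for 1, with 77 past 2-fold downward and a median of -1.32. Their mean signal was 11.45, 11.08 and 11.24 in late MMS arrays, against 12.61 and 12.54 at time 0. RPL13A read 9.75, 9.40 and 9.83 in late MMS cells and 12.64 and 12.63 at time 0, and RPL27B, RPS26B and RPL6B changed by -2.74 ± 0.31, -2.65 ± 0.26 and -2.61 ± 0.22. RPL15B was the member called higher, at 0.72 ± 0.12, and RPL10 was not called, at 0.09 ± 0.08. Both were named after their values were seen. For 25 members the probe set also detects a similar gene, so that a pair of copies may not be separable there. Translation factors had 27 of 33 members lower and 2 higher, at a median of -0.76. The higher ones were CAM1 and GCD1, at 0.39 ± 0.09 and 0.44 ± 0.10. NIP1, a subunit of the initiation factor eIF3, changed by -2.56 ± 0.28, TIF3, eIF4B, by -2.21 ± 0.31, the eIF5A isoform ANB1 by -2.19 ± 0.29 and the scaffold eIF4G gene TIF4631 by -1.77 ± 0.25. Aminoacyl-tRNA synthetases had 17 of 19 members lower and 0 higher, led by the tryptophan, methionine, valine and histidine enzymes WRS1, MES1, VAS1 and HTS1 at -2.09 ± 0.25, -1.77 ± 0.21, -1.61 ± 0.18 and -1.61 ± 0.17.

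**Figure D3:**
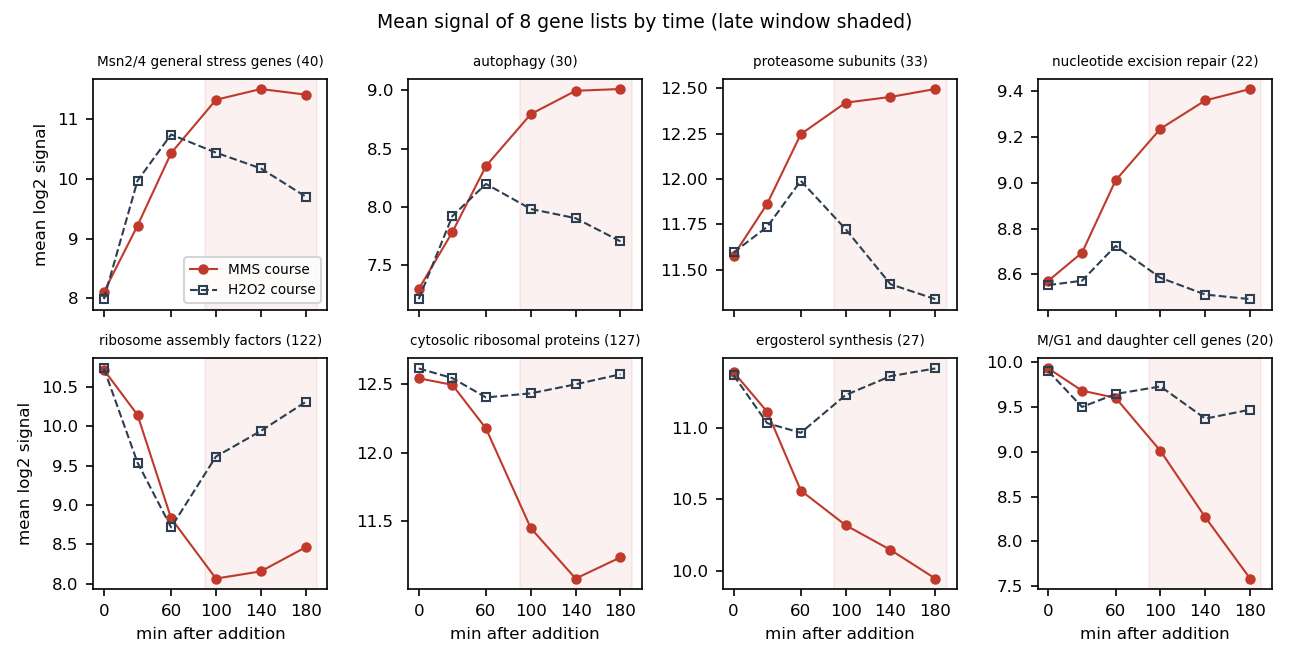
Mean log2 signal of 8 lists at each time point of the MMS course (filled points) and the H2O2 course (open squares), 1 array per point, with the late window shaded. In the late window every general stress, autophagy, proteasome and excision repair mean of the MMS course lies above the H2O2 course, and every ribosome assembly, ribosomal protein, ergosterol and M/G1 mean lies below it.

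Cell cycle genes of mitosis and of daughter cells were low late in MMS. The CLB2 cluster, expressed in G2 and mitosis, had 21 of 24 members lower, 0 higher and 15 past 2-fold downward, at a median of -1.55. CLB2, the main mitotic cyclin, read 5.91, 5.56 and 5.24 in late MMS cells and 9.03 and 9.08 at time 0, a change of -3.49 ± 0.32. CLB1 changed by -2.27 ± 0.36 and CHS2, the chitin synthase of the septum, by -2.60 ± 0.32. The arrays measure whole cultures, so that fewer cells in a phase and less RNA per cell cannot be told apart. Genes of the M/G1 transition and of daughter cells had 15 of 20 lower and 14 past 2-fold downward, at a median of -2.06. The cell wall gene PIR1 read 8.88, 7.46 and 7.08 in late MMS cells and 11.61 and 11.62 at time 0, and the glucanase-like genes SUN4 and EGT2 changed by -3.58 ± 0.47 and -2.79 ± 0.60. The members called higher were CHS1 and PIR3, at 0.35 ± 0.13 and 1.32 ± 0.41, and neither call held without the time 0 array of the H2O2 course. CTS1, the chitinase of cell separation, was not called, at -0.30 ± 0.26 (adjusted p = 0.317).

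The G1/S list had 9 of 41 members higher and 20 lower, at a median of -0.29. PCL1, a cyclin of the kinase Pho85, read 5.03, 4.74 and 4.55 in late MMS cells and 8.74 and 8.59 at time 0. CLN2 read 6.94, 6.496 and 5.99 against 9.32 and 9.32, and CLN1 and the repressor gene YOX1 changed by -2.37 ± 0.29 and -2.87 ± 0.33. The members past 2-fold upward were the single-strand DNA binding subunits RFA1 and RFA2 and the primase subunit PRI2, at 1.43 ± 0.22, 1.70 ± 0.23 and 1.01 ± 0.16, named after their values were seen. Origin licensing and firing genes had 9 of 24 higher and 8 lower, and no direction is given for the list. CDC6, the loader of the replicative helicase, changed by -1.84 ± 0.31, and the helicase subunits MCM7 and MCM2 by -1.84 ± 0.29 and -1.22 ± 0.17. SLD3, a firing factor, changed by -1.21 ± 0.13. The members past 2-fold upward were the origin recognition subunits ORC4 and ORC5 and the kinase gene CDC7, at 1.18 ± 0.12, 1.08 ± 0.15 and 1.16 ± 0.15, named after their values were seen. Histones had 7 of 10 members lower and 0 higher. HTB2, a histone H2B gene, read 7.51, 7.19 and 7.31 in late MMS cells and 11.56 and 11.50 at time 0, a change of -4.19 ± 0.43. The H2A gene HTA1 changed by -1.34 ± 0.22 and HTZ1, the H2A variant, by -1.67 ± 0.18. HTA2 changed by -1.51 ± 0.26 on a probe set of the shared type.

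Ergosterol synthesis had 23 of 27 members lower, 0 higher and 16 past 2-fold downward, at a median of -1.27, with a mean signal of 10.32, 10.14 and 9.94 in late MMS arrays, against 11.37 and 11.39 at time 0. ERG5, the C-22 desaturase, changed by -2.98 ± 0.35. HMG1, the major HMG-CoA reductase, read 8.80, 8.54 and 7.95 in late MMS cells and 11.24 and 11.33 at time 0. ERG1, squalene epoxidase, changed by -2.70 ± 0.39, MVD1, mevalonate diphosphate decarboxylase, by -2.54 ± 0.27 and ERG11, the azole target, by -1.27 ± 0.22. Purine and pyrimidine genes had 20 of 29 members lower and 3 higher, with 16 past 2-fold downward. Beside URA7 and AAH1, the salvage enzyme FUR1 changed by -3.21 ± 0.40 and URA1, dihydroorotate dehydrogenase, by -2.86 ± 0.34. The members called higher, URA10, ADE16 and ADE2, changed by 2.43 ± 0.34, 1.17 ± 0.13 and 1.03 ± 0.14 and were named after their values were seen.

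The sulfur list had 19 of 33 members higher and 6 lower, at a median of 0.75. MET2, homoserine acetyltransferase, read 10.02, 9.71 and 8.86 in late MMS cells and 5.25 and 5.54 at time 0. STR3, cystathionine beta-lyase, rose by 3.36 ± 0.46, the transcription factor gene MET28 by 2.83 ± 0.41 and the methionine permease gene MUP3 by 2.52 ± 0.30. The count past 2-fold upward was 14, and 8 where the window was widened to 60 to 180 min. Its count past 2-fold downward was 4, and 1 without the 180 min MMS array. Gcn4 targets of amino acid synthesis split, with 20 of 56 higher and 15 lower and no direction for the list. The branched-chain genes LEU9, ILV5 and ILV3 changed by -2.38 ± 0.36, -2.18 ± 0.22 and -2.02 ± 0.29, SNO1, of vitamin B6 synthesis, rose by 1.83 ± 0.36, and GCN4 itself was not called, at -0.08 ± 0.08 (adjusted p = 0.384).

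Iron genes had 16 of 33 members higher and 6 lower, 10 and 4 of them past 2-fold. ISU2, a scaffold for iron-sulfur clusters, read 12.72, 12.76 and 12.89 in late MMS cells and 10.35 and 10.15 at time 0. The iron regulator AFT2 rose by 2.23 ± 0.32 and TIS11, which destabilises mRNAs of iron-using proteins, by 2.16 ± 0.28, and the reductase gene FRE4 changed by -2.25 ± 0.43. Phosphate genes had 9 of 19 higher and 3 lower, 3 and 1 of them past 2-fold. PHM8, a nucleotide phosphatase gene, read 8.65, 8.77 and 8.34 against 4.07 and 4.55, PHM7 rose by 1.82 ± 0.22, and PHO85, the cyclin-dependent kinase of the pathway, rose by 1.25 ± 0.16. PHO84, the high-affinity transporter, changed by -1.15 ± 0.44, a call that is lost without either time 0 array. Drug resistance genes had 11 of 29 higher and 7 lower, 5 and 4 of them past 2-fold. The transporter genes ATR1 and FLR1, which the antioxidant list also holds, rose by 2.65 ± 0.20 and 2.48 ± 0.51, the regulator gene YRR1 rose by 2.46 ± 0.22, and the acid exporter gene PDR12 changed by -1.80 ± 0.29. Cell wall genes had 7 of 28 higher and 12 lower, 3 and 8 of them past 2-fold. GAS1, a glucan remodelling enzyme, read 10.55, 9.56 and 9.44 in late MMS cells and 12.34 and 12.36 at time 0, and YPS3, CRH1 and WSC2 changed by -1.999 ± 0.30, -1.50 ± 0.23 and -1.48 ± 0.17.

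The mRNA decay list had 24 of 44 members lower and 10 higher, with 7 past 2-fold downward and a median of -0.42. MTR4, the nuclear exosome helicase that also acts in rRNA processing, read 7.11, 7.04 and 7.33 in late MMS cells and 10.35 and 10.45 at time 0, and the decapping activator DHH1 changed by -1.48 ± 0.20. EDC2, an activator of decapping, and SKI7, of the cytoplasmic exosome, rose by 2.87 ± 0.25 and 1.55 ± 0.14. Nuclear pore and karyopherin genes had 20 of 44 lower, 7 higher and 3 past 2-fold downward, against 16.2% of all probe sets past 2-fold downward. The 3 were the importin genes KAP123, NMD5 and KAP95, at -2.52 ± 0.39, -1.53 ± 0.22 and -1.23 ± 0.20, with PSE1 just short of 2-fold at -0.99 ± 0.16. The mitochondrial ribosome had 18 of 68 members higher and 20 lower, and 10 higher and 7 lower without the time 0 array of the H2O2 course, so no direction is given. The list's only member past 2-fold upward was MRP8, at 1.38 ± 0.21. It was listed by its name, and its protein is not an established part of the ribosome. MRPL44, RSM27 and MRPL1 changed by -1.35 ± 0.18, -1.15 ± 0.15 and -1.01 ± 0.19.

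Markers of cell type held to one pattern on all 5 arrays. The pheromone genes MF(ALPHA)1 and MF(ALPHA)2 of alpha cells were not called, and MF(ALPHA)1 read 12.34, 12.33 and 12.13 in late MMS cells, against 12.45 and 12.41 at time 0. The a-cell agglutinin gene AGA2 read 4.70, 4.86 and 5.04 in late MMS cells, against 5.20 and 5.13 at time 0. The mean signal of the 4 alpha-cell genes was 12.29, 12.12 and 12.002 in late MMS arrays, against 12.27 and 12.22 at time 0. For the 7 a-cell genes it was 5.66, 5.71 and 5.85 in late MMS arrays, against 5.70 and 5.72 at time 0. Of the a-cell genes 1 was called higher, STE6 at 1.08 ± 0.15, and 1 lower, BAR1 at -0.46 ± 0.18, a call that is lost without either time 0 array. Of 4 alpha-cell genes 1 was called lower, SAG1 at -0.45 ± 0.13. The SAG1 call is lost without the time 0 array of the H2O2 course and with the window widened to 60 to 180 min. Haploid and mating genes had 7 of 23 higher and 10 lower. Beside HO, the adhesin genes FIG2 and AGA1 changed by -1.82 ± 0.26 and -1.53 ± 0.28, and the kinase gene STE11 rose by 2.12 ± 0.24. Meiosis and sporulation genes had 22 of 36 members higher and 4 lower, but 14 higher and 7 lower under quantile normalization. Many are dim, with a list mean of 4.85 and 4.86 at time 0. With the dimmest 25% of probe sets left out, 3 members were called higher and 0 lower. SPS100, a spore wall gene, rose by 2.60 ± 0.31, HOP1, of the meiotic chromosome axis, by 1.41 ± 0.24 and the recombinase gene DMC1 by 1.26 ± 0.23. All 3 of these had time 0 values under 7, and SPS4 changed by -2.16 ± 0.21.

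Within the window, few probe sets kept moving. Values that were in order over the 3 times and 2-fold or more apart between 180 and 100 min numbered 40 upward (0.7%) and 69 downward (1.21%), with 1 array per time and no test. Of the 69, 49 were also called lower than time 0, and of the 40, 21 were also called higher. HSP26, a small heat shock protein, climbed over 10.14, 11.96 and 12.41 at 100, 140 and 180 min, with time 0 at 8.42 and 8.34. TKL2, a transketolase isoform, climbed over 5.56, 6.77 and 7.68, with time 0 at 3.88 and 3.98, and the transcription factor gene PHD1 over 8.67, 9.57 and 10.62, with time 0 at 9.04 and 9.21. PHD1 therefore began below its time 0 values and ended above them. Among the 6 largest ordered falls, DSE2, a daughter cell gene, read 8.97, 7.22 and 5.26 with time 0 at 9.65 and 9.56, and SUN4 read 9.11, 7.72 and 6.93 with time 0 at 11.50 and 11.51. FRM2, a nitroreductase-like gene, read 10.59, 9.29 and 8.44 with time 0 at 5.32 and 5.53 and so remained above time 0. CWP1, a cell wall mannoprotein gene, read 9.89, 8.33 and 6.74, above time 0 (9.49 and 9.70) at 100 min and below it at 180 min. EGT2 and PST1 declined over the same times, as the plot of the window shows, and 4 of the 6 largest falls (DSE2, PST1, EGT2 and SUN4) belong to the M/G1 list.

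**Figure D4:**
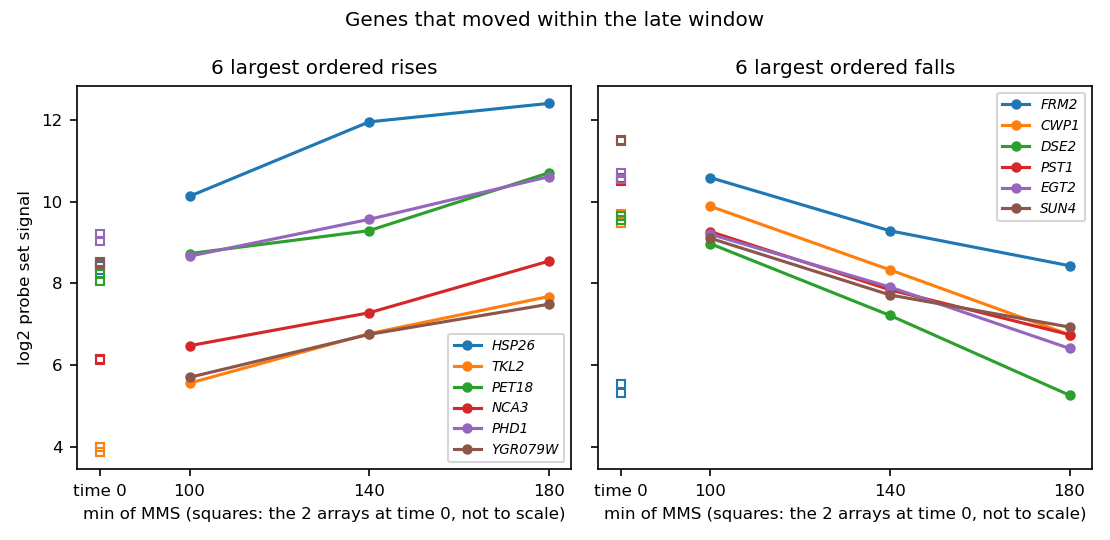
Log2 signal at 100, 140 and 180 min of MMS for the 6 largest ordered rises and the 6 largest ordered falls, 1 array per point, with the time 0 arrays as open squares at the left of each panel. FRM2 ends above its time 0 squares while DSE2, PST1, EGT2 and SUN4 start below theirs and decline further.

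The late window was also compared with the first hour of the same treatment. Late MMS cells had 1558 probe sets higher (27.3%) and 1218 lower (21.3%) than early MMS cells, 314 and 422 of them past 2-fold (5.49% and 7.38%). These counts rest on the 30 min array, since without it 359 were higher and 330 lower, 83 and 143 of them past 2-fold. The glycogen phosphorylase gene GPH1 read 11.02, 11.35 and 11.07 at 100, 140 and 180 min, against 6.19 and 8.52 at 30 and 60 min, a difference of 3.79 ± 0.71 (adjusted p = 0.00411). FMP16 read 10.24, 11.07 and 10.997 late against 5.91 and 7.90 early, a difference of 3.87 ± 0.59. YOL131W, HSP12, HSP26, SOL4, YNL194C and DCS2, a relative of the mRNA cap hydrolase gene DCS1, were higher late by 3.44 ± 0.87, 3.36 ± 0.78, 3.32 ± 0.55, 3.17 ± 0.63, 3.09 ± 0.72 and 3.09 ± 0.56. Without the 30 min array the calls for YOL131W, HSP12, SOL4 and YNL194C were lost, at 2.32, 1.89, 2.14 and 1.69. At the other end TOS6 read 5.56, 4.53 and 4.68 late against 9.50 and 7.68 early, a difference of -3.67 ± 0.50. PIR1, UTR2 and the peptide transporter gene PTR2 were lower late, with differences of -3.39 ± 0.44, -3.16 ± 0.38 and -3.30 ± 0.44, and so were DBP2, PHO3, URA7 and CYC1, with differences of -3.07 ± 0.62, -3.03 ± 0.52, -2.95 ± 0.71 and -2.75 ± 0.41. Without the 30 min array the calls for DBP2 and URA7 were lost, at -2.26 and -1.59.

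By list, autophagy had 27 of 30 members higher late than early and vacuolar hydrolases 11 of 15, with medians of 0.82 and 0.69. General stress genes had 32 of 40 higher at a median of 1.40. Ribosomal protein genes had 123 of 127 lower at -1.03, ribosome assembly 86 of 122 at -1.29, ergosterol synthesis 19 of 27 at -0.76 and the M/G1 list 14 of 20 at -1.52. Without the 30 min array only the 60 min array was left in the early group, and fewer members of each of these lists were called. The medians without the 30 min array were 0.57 for autophagy, 0.54 for vacuolar hydrolases and 0.84 for general stress genes. They were -0.86 for ribosomal proteins, -0.62 for ribosome assembly, -0.46 for ergosterol synthesis and -1.45 for the M/G1 list. The antioxidant list had 8 of 33 higher and a median difference of 0.17, against a median of 0.06 over all probe sets. Its median without the 30 min array was 0.05. Of its leading members TSA2 read 12.53, 12.46 and 12.36 late against 9.96 and 12.18 early, and SRX1 12.28, 11.68 and 11.80 against 12.27 and 12.86, so most of their rise was present by 60 min. MAG1 read 10.87, 11.11 and 11.42 late and 9.89 and 10.77 early, and RNR3 9.47, 9.28 and 9.15 late and 7.53 and 8.77 early.

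Against cells at 100 to 180 min of H2O2, late MMS cells had 2242 probe sets higher (39.2%) and 1787 lower (31.3%), with 811 (14.2%) and 725 (12.7%) past 2-fold. The excess of 3′ over 5′ signal was above every late H2O2 array on all late MMS arrays for 4 of the 6 control genes. It was 0.57, 0.54 and 0.66 in late MMS against 0.28, 0.32 and 0.22 in late H2O2 for ACT1, and 1.44, 1.45 and 1.26 against 0.64, 0.83 and 0.79 for WBP1, and its part in these differences was not tested. DDI3 read 13.16, 13.06 and 13.18 in late MMS cells and 6.94, 6.91 and 6.75 in late H2O2 cells, a difference of 6.27 ± 0.28 (adjusted p = 3.40e-06). YNR064C read 10.40, 10.43 and 10.36 against 4.57, 4.75 and 4.52, a difference of 5.78 ± 0.42. The aryl-alcohol dehydrogenase genes AAD6 and AAD4 were higher by 5.14 ± 0.37 and 4.28 ± 0.40. SRX1, whose enzyme acts on peroxiredoxins oxidised by peroxide, read 12.28, 11.68 and 11.80 in late MMS cells and 8.69, 6.67 and 5.77 in late H2O2 cells, a difference of 4.87 ± 0.59. LSO1, YKL070W and YNL194C were higher by 4.81 ± 0.68, 4.46 ± 0.48 and 4.42 ± 0.64. CYB5 read 6.78, 6.44 and 5.91 in late MMS cells and 10.94, 11.38 and 11.80 in late H2O2 cells, a difference of -4.997 ± 0.45. TOS6, PHO3, URA7 and SRO9 were lower, with differences of -4.54 ± 0.44, -4.36 ± 0.47, -4.07 ± 0.63 and -4.05 ± 0.51, and so were CYC1, IZH1 and SCM4, with differences of -4.02 ± 0.36, -3.99 ± 0.47 and -3.98 ± 0.39.

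Most proteasome, excision repair and general stress genes were higher in late MMS than in late H2O2 cells, and ribosome genes were lower. Proteasome subunits were higher in late MMS for 32 of 33, nucleotide excision repair for 16 of 22 with 2 lower, and base excision repair for 10 of 14 with 2 lower, at medians of 0.97, 0.79 and 0.55. Antioxidant genes were higher in late MMS for 24 of 33 and lower for 1, at a median of 0.83. Their mean signal was 11.70, 11.61 and 11.60 in late MMS arrays and 11.07, 10.34 and 9.93 in late H2O2 arrays. At 30 and 60 min of H2O2 it was 11.64 and 11.73, so this difference holds for the late windows and not for the peroxide course as a whole. General stress genes were higher for 34 of 40, at 1.30, with mean signals of 11.32, 11.50 and 11.41 in late MMS arrays and 10.44, 10.18 and 9.70 in late H2O2 arrays. The means of this list at 30 and 60 min of H2O2 were 9.97 and 10.74. Ribosomal protein genes were lower in late MMS for 124 of 127, at -1.24, and ribosome assembly for 114 of 122, at -1.72. Mean signals of ribosome assembly were 8.07, 8.16 and 8.46 in late MMS arrays and 9.62, 9.94 and 10.31 in late H2O2 arrays. At 30 and 60 min of H2O2 the ribosome assembly means were 9.54 and 8.72. Respiratory genes were lower for 26 of 51. The ribonucleotide reductase list was mixed, with 5 of 14 higher and 4 lower, and RNR3 read 9.47, 9.28 and 9.15 in late MMS cells and 8.90, 9.02 and 8.65 in late H2O2 cells. MAG1 read 10.87, 11.11 and 11.42 in late MMS cells and 9.73, 8.71 and 8.41 in late H2O2 cells, a difference of 2.19 ± 0.34. Late MMS arrays had 1004 to 1162 probe sets 2-fold or more higher and 849 to 1005 2-fold or more lower than the time 0 mean, against 205 to 374 higher and 31 to 223 lower in late H2O2 arrays. At 30 and 60 min of MMS these counts were 240 and 663 higher and 93 and 575 lower. At 30 and 60 min of H2O2 they were 356 and 535 higher and 302 and 466 lower.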

How the data were processed

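Total RNA was labelled through poly(T)-primed cDNA as biotinylated cRNA and hybridised to 1-colour Affymetrix arrays, per the labels' protocols. The authors deposited signals on a log2 scale, computed with RMA per the submitters' processing notes. The version of RMA and whether all arrays were normalized together are not given in the sources used here. Array medians lay between 9.04 and 9.19 and no further scaling was applied. Of 5900 probe sets 184 were controls. Of the 5716 tested, 5498 were named with 1 gene by the platform annotation (symbols updated through RefSeq gene IDs for 12) and 218 with none, and lists used the brightest probe set of 47 genes that have several. Of the list entries 16 had no probe set.

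In R 4.3.3, limma 3.58.1 fitted 5 groups (time 0, and early and late windows of each treatment) over the 12 arrays together, which left 7 residual degrees of freedom. Adjustment was over all 5716 probe sets, and intervals after ± are the model's SE. The script was tested on simulated data. Members and lists were chosen with earlier results of these data known, so lists are described by counts and medians, without a list test. Named genes are the 12 largest rises and falls, up to 4 members per list with the largest change, a fixed set of markers, the 8 largest differences each way in the other comparisons, and the 6 largest ordered rises and falls in the window. Exceptions and members of small counts that fall outside this rule were named once their values were known. The number of arrays limits the precision. The alternatives were the samples in the fit, normalization, a filter on dim probe sets, moderation, the choice of probe sets, the window, each array left out and, added after the data were seen, the time point as a block.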

Additional observations from a re-analysis of the deposited data

Results flagged for a closer look

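Each value here is a difference between groups that was itself tested as a contrast in limma, and it is listed because the late MMS response departed from that of the compared window.

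Between the late and the early windows of MMS, 1558 probe sets were higher and 1218 lower late, counts that fall to 359 and 330 without the 30 min array. The higher genes were FMP16 (3.87), GPH1 (3.79), YOL131W (3.44), HSP12 (3.36), HSP26 (3.32), SOL4 (3.17), YNL194C (3.09) and DCS2 (3.09). The lower genes were TOS6 (-3.67), PIR1 (-3.39), PTR2 (-3.30), UTR2 (-3.16), DBP2 (-3.07), PHO3 (-3.03), URA7 (-2.95) and CYC1 (-2.75). Without the 30 min array the differences were 2.32 for YOL131W, 1.89 for HSP12, 2.14 for SOL4 and 1.69 for YNL194C. They were -2.26 for DBP2 and -1.59 for URA7. With the window of 60 to 180 min against 30 min, HSP26 differed by 2.67 and PIR1 by -3.02. Both settings left 1 early array, and the calls of the genes named under them did not hold.

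Between late MMS and late H2O2, 2242 probe sets were higher and 1787 lower in MMS. The higher genes were DDI3 (6.27), YNR064C (5.78), AAD6 (5.14), SRX1 (4.87), LSO1 (4.81), YKL070W (4.46), YNL194C (4.42) and AAD4 (4.28). The lower genes were CYB5 (-4.997), TOS6 (-4.54), PHO3 (-4.36), URA7 (-4.07), SRO9 (-4.05), CYC1 (-4.02), IZH1 (-3.99) and SCM4 (-3.98). All of these are log2 differences, late MMS minus the compared window.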

How the results depend on the processing

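The counts against time 0 and against late H2O2 kept within 1.5 times of the reported ones under every alternative run. Leaving out each array of the compared groups in turn gave 2000 to 2296 probe sets higher and 1690 to 1955 lower than time 0, 3730 to 4251 in all. Against late H2O2 it gave 2028 to 2167 higher and 1601 to 1764 lower, 3640 to 3931 in all. Against early MMS it gave 359 to 1818 higher and 330 to 1386 lower, 689 to 3204 in all, and 83 to 623 and 143 to 654 past 2-fold, the low ends without the 30 min array. With the arrays of the compared groups alone, 798 were higher and 658 lower late than early, 1456 in all. With a window of 60 to 180 min against 30 min, 655 were lower and 1711 called in all. With the dimmest 25% of probe sets left out, 205 were 2-fold or more higher late than early. No named gene's call reversed its direction. The balance between higher and lower counts turned in several cases. With the arrays centred on their medians, 978 were 2-fold or more higher and 1017 lower than time 0, and against late H2O2 1986 were higher and 2048 lower, 674 and 817 of them past 2-fold. Under quantile normalization the counts past 2-fold were 970 higher and 1005 lower than time 0 and 741 higher and 781 lower than late H2O2. Without the dimmest 25% of probe sets, 612 were 2-fold or more higher and 618 lower than late H2O2. With the window of 60 to 180 min, 416 were 2-fold or more higher and 395 lower than 30 min of MMS. Among lists the balance turned under at least 1 alternative for post-replication repair, origin licensing, respiration, the mitochondrial ribosome, hexose transporters and amino acid synthesis. Medians close to 0 crossed it under at least 1 alternative for post-replication repair, origin licensing, respiration, the mitochondrial ribosome, glycolysis, hexose transporters, amino acid synthesis, folding in the endoplasmic reticulum and alpha-cell genes. List counts under the filter on dim probe sets are lower because fewer genes are tested. For autophagy, 13 members were called higher under that filter, against 27 without it. No paired analysis was possible for the comparisons with time 0 and early MMS because they share no time points with the late window. Late MMS and late H2O2 share 100, 140 and 180 min, and with the time point as a replicate block, a fit chosen after seeing the data, 2406 were higher and 1896 lower, 4302 in all, 815 and 726 past 2-fold, within 1.5 times of the reported counts. Deviations of same-time arrays from their window means correlated at 0.08, 0.14 and 0.14 over probe sets, so the times were not taken as pairs. Promoter motifs were not searched here. Saturation of bright probe sets was not tested.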

Other observations

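Several pairs of related genes moved apart in late MMS cells, and they were picked after their values were seen, with no test of the difference between the members of a pair. The cytochrome oxidase subunit genes COX5B and COX5A changed by 3.06 ± 0.32 and -1.71 ± 0.22, as did CYC7 and CYC1 by 2.81 ± 0.39 and -3.46 ± 0.41. The Hsp110 genes SSE2 and SSE1 changed by 2.80 ± 0.31 and -0.21 ± 0.12, and the Hsp90 genes HSP82 and HSC82 by 2.60 ± 0.29 and -0.03 ± 0.09, where SSE1 and HSC82 were not called (adjusted p = 0.148 and 0.77). The external NADH dehydrogenases NDE2 and NDE1 changed by 2.34 ± 0.38 and -1.99 ± 0.23. The H2B genes HTB2 and HTB1 both fell, by different sizes, at -4.19 ± 0.43 and -0.58 ± 0.11. The HMG-CoA reductases HMG1 and HMG2 changed by -2.86 ± 0.35 and 0.12 ± 0.10, where HMG2 was not called (adjusted p = 0.307).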
